A study of Mus musculus with 13 samples.

Results

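Naive CD4+ T cells of diabetes-prone mice were compared after 96 hours with macrophages of control islets and as cells alone, in 8 of the 13 libraries of the series. The members are the 4 libraries of T cells that had been cultured with islet macrophages of buffer-treated donors (called co-culture here) and the 4 libraries of T cells alone, all taken from the table of unnormalized counts. In both groups the T cells came from the spleen of female NOD/ShiLtJ-background mice that carry the receptor transgenes TcraBDC2.5 and TcrbBDC2.5, and were labelled as primary naive cells. For the co-culture, NOD mice were injected with buffer at 4 weeks of age, their islets were taken 10 days later, at 5.5 weeks, and macrophages were pulled out with magnetic beads. After co-culture, living cells with surface CD45, Thy1.2 and CD4 were sorted. Nothing in the sources used here tells if the T cells of the other group were kept in culture, so time in culture and the macrophages cannot be told apart, and every difference below covers both. The age of the T cell donors and whether animals were pooled are not given either. The replicates are called biological, without naming the animals behind them, and p-values measure the spread between these libraries only.

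The BDC2.5 receptor recognises a hybrid insulin peptide of beta cell granules, and T cells with this receptor can transfer diabetes. Resident islet macrophages take up beta cell granules and carry MHC class II, so they can present granule peptides to CD4+ T cells. A naive T cell is small, rests outside the cell cycle, survives on interleukin 7 and circulates through lymph nodes. When its receptor and costimulatory receptors are engaged, it takes on the high-affinity interleukin 2 receptor, grows, divides repeatedly, changes its homing receptors and can make cytokines.

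Total estimated counts were 17.3 to 39.8 M in the cells alone and 30.6 to 61.3 M in the co-cultures, and 15246 to 21014 genes had a count in a library. All 4 cells-alone libraries and co-cultures 1, 2 and 4 were collected on day 1, and co-culture 3 on day 2. Along the first principal component, with 60.8% of the variance, the cells alone lay at -149 to -97.3 and the co-cultures at 103 to 145. Correlations of log2 values across genes were 0.851 to 0.955 among the cells alone, 0.908 to 0.974 among the co-cultures and 0.620 to 0.786 between the groups. The 4 libraries of each group did not form a tight set: gene levels in cells-alone 1 and 2 and in co-cultures 1 and 2 leaned to GC-rich genes relative to their group's mean (Spearman's rho 0.249 to 0.367 over 7950 genes), and those in cells-alone 3 and 4 and co-culture 3 to GC-poor genes (-0.425 to -0.256). The log2 fold change itself had a rho of -0.0428 with GC content. The T cell identity genes summed to 17200 to 27100 CPM (counts per M counts of the library) in the cells alone and 19500 to 24600 in the co-cultures. Cd4 was at 532 CPM or more and Cd3e at 952 CPM or more in each of the 8 libraries, so the defining transcripts of the labelled cell type were present in both groups.

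Of 14590 genes with enough counts to be tested, 2755 rose in co-culture, which is 18.9% of them, and 2855 fell, which is 19.6% (edgeR quasi-likelihood test, Benjamini-Hochberg adjusted p under 0.05). Together they make 38.5% of all genes tested, and the shares of gene groups below are read against these backgrounds. A gene near 0 in 1 group could enter the test only through the other, which can raise the share called in lists that hold such genes. With a test for more than a 2-fold difference, 1422 genes rose (9.75%) and 1268 fell (8.69%). The values of the 2 groups did not overlap for 2632 of the genes that rose and 2449 of those that fell, against 41.1% non-overlapping genes among all tested. The median log2 fold change of all genes was -0.16, with quartiles of -1.27 and 0.93. This balance depends on the scaling. With library totals alone the median moved to -0.53, and 34.8% of the called genes were higher instead of 49.1%. Without co-culture 1 or 4 the genes called lower dropped to 1871 and 1798.

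**Figure D1:**
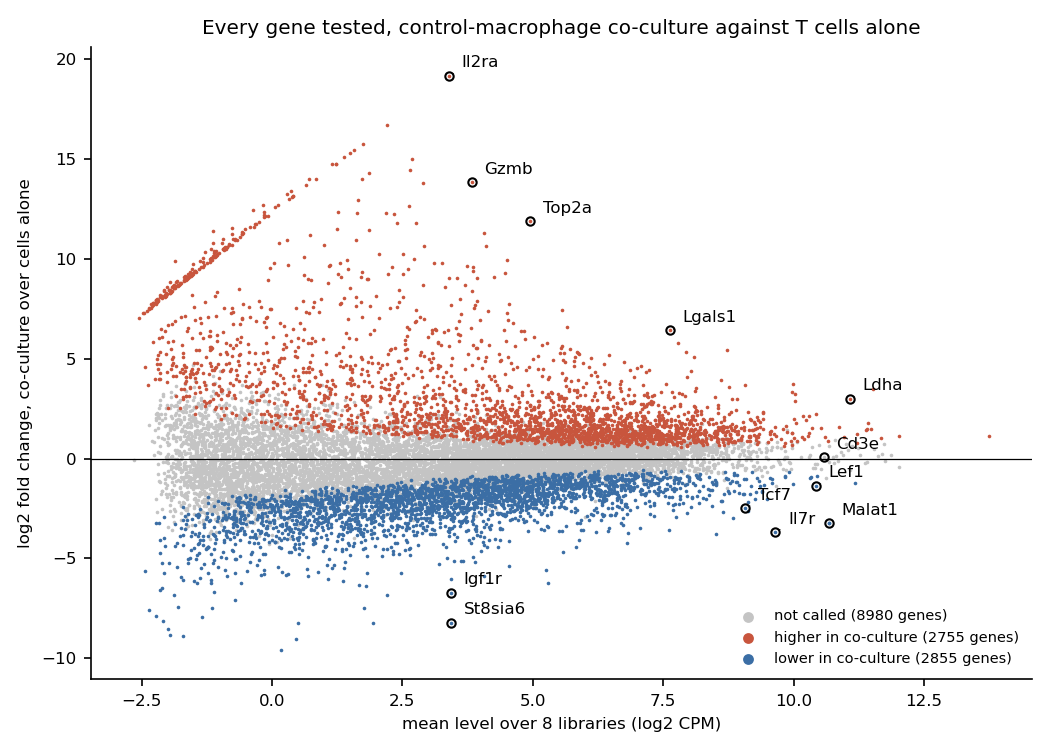
Log2 fold change of co-culture over cells alone (vertical axis) against the mean level over the 8 libraries in log2 CPM (horizontal axis), 1 point per gene tested. Red points are the 2755 genes called higher, blue points the 2855 called lower and grey points those not called; the straight upper edge at the left is made of genes with no count in the cells alone, whose fitted fold change depends on the prior count.

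Among called genes at a mean level of 3 log2 CPM or more, the largest rises were in the interleukin 2 receptor, a cytotoxic granule protease and the machinery of cell division. Genes of lower mean level, such as Lif, Bcat1 and Ifitm3, described below, had larger fitted fold changes than some of these. Il2ra (CD25, chromosome 2, 11642807 to 11693193 on the plus strand of GRCm38), the alpha chain that gives the interleukin 2 receptor its high affinity, had no count in any of the 4 cells-alone libraries. It stood at 1799, 1200, 3376 and 1974 CPM in co-cultures 1 to 4, at least 84558-fold higher against a floor of 3 counts over the group (adjusted p = 2.76e-05). Gzmb (chromosome 14, 56258838 to 56262260, minus strand), the protease granzyme B, was at 0, 0.735, 0 and 0.0298 CPM in cells-alone 1 to 4. In co-cultures 1 to 4 it was at 765, 1133, 5380 and 1663 CPM, with the highest level in the library of day 2 (log2 fold change 13.82, SE 1.53, adjusted p = 0.000231). Tnfrsf9 (4-1BB), a costimulatory receptor that appears on activated T cells, was under 1 CPM in the 4 cells-alone libraries and at 317, 272, 1038 and 314 CPM in the co-cultures (9.62, SE 1.03). The other 12 of the 15 largest rises at that mean level were in genes of replication, repair and division, among them Top2a, which untangles DNA (11.89, SE 1.08), Birc5, or survivin (11.29, SE 0.59), the spindle protein Nusap1 (10.63, SE 0.99) and the PCNA partner Pclaf (9.97, SE 1.04). For Rrm2, a subunit of the enzyme that makes deoxyribonucleotides, the co-cultures were spread over 570, 1009, 117 and 169 CPM, all far above the 0.387 to 0.778 CPM of the cells alone (9.58, SE 0.88).

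The 15 largest falls at the same mean level were in genes of various functions. St8sia6, a sialyltransferase (chromosome 2, 13651021 to 13794064, minus strand), was at 203, 159, 183 and 238 CPM in cells-alone 1 to 4 and at 0.947, 0.516, 1.01 and 0.168 CPM in co-cultures 1 to 4 (log2 fold change -8.21, SE 0.57, adjusted p = 2.25e-05). Igf1r, the receptor for insulin-like growth factor 1, went from 78.5, 98.2, 113 and 164 CPM to 1.30, 0.550, 1.54 and 0.941 CPM (-6.72, SE 0.46, adjusted p = 2.07e-05). The groups are far apart for both genes. The laminin receptor subunit Itga7 (-5.35, SE 0.42), the membrane-binding protein Cpne4 (-5.28, SE 0.41), the anion transporter Slc26a11 (-5.16, SE 0.36), the potassium channel partner Kcnip2 (-5.10, SE 0.39) and the receptor for vasoactive intestinal peptide Vipr1 (-5.13, SE 0.59) fell as well. Some of the largest falls differed widely within the cells alone. Ypel3 stood at 27.9, 453, 36.8 and 32.4 CPM in cells-alone 1 to 4, with library 2 far above the other 3, against 0.723 to 3.20 CPM in co-culture (-6.04, SE 1.14, adjusted p = 0.00304). Phf1 was at 126 and 204 CPM in cells-alone 1 and 2 but at 23.9 and 16.3 in 3 and 4, and at 1.13 to 5.58 in co-culture (-5.12, SE 0.94). Of Phf1's exonic bases 39.3% lie under genes on the other strand, and this library kit does not keep the strand, so its reads and theirs cannot be separated. Among genes described below this share is 19.7% for Cdk4, 15.1% for Csf1r and 13.7% for Lef1. It is 12.8% for Ctsb, 11.5% for Cish and 10.3% for Hsp90b1.

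**Figure D2:**
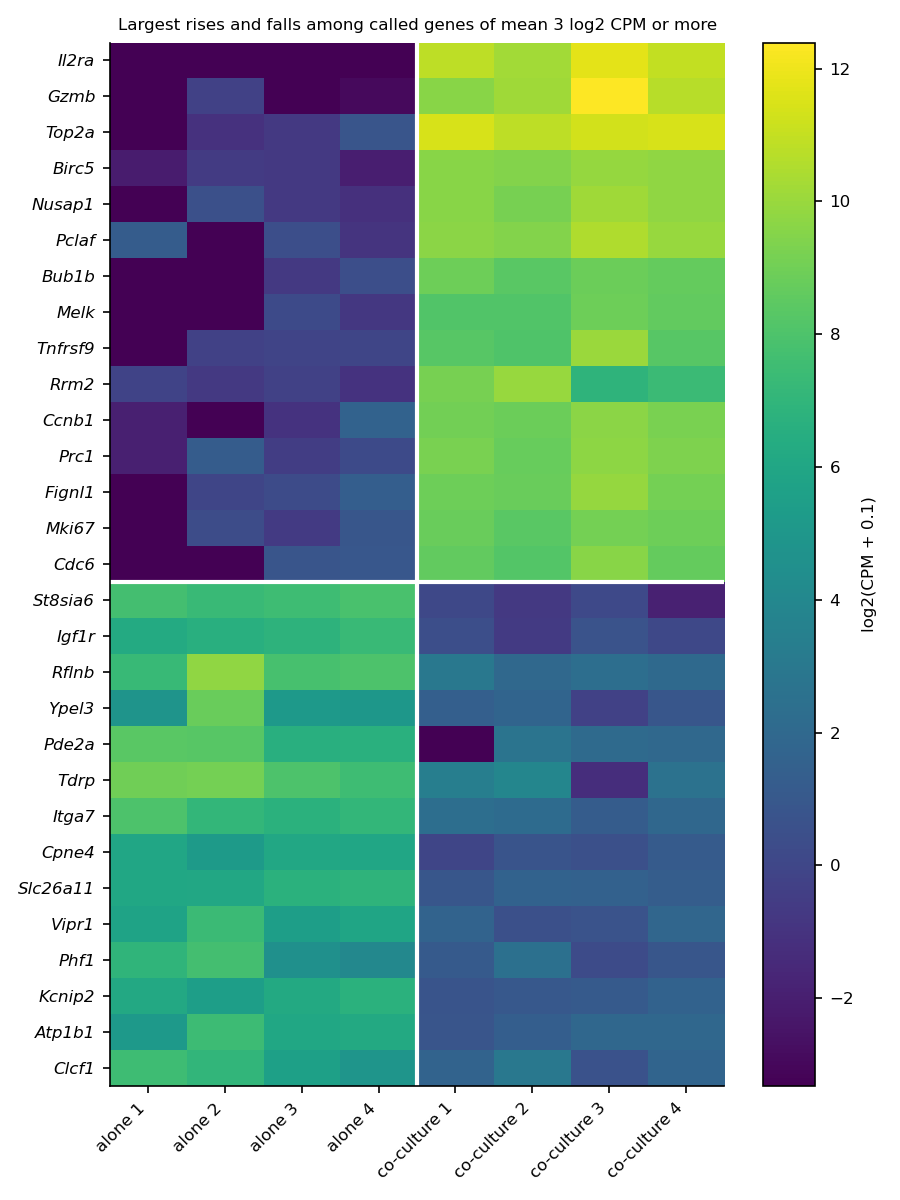
Level of the 15 genes with the largest rise and 14 of the 15 with the largest fall among those called at a mean level of 3 log2 CPM or more, 1 row per gene and 1 column per library, as log2(CPM + 0.1) on the colour scale. The upper rows are dark in all 4 cells-alone libraries and bright in all 4 co-cultures, and the lower rows the reverse, with Rflnb and Ypel3 brightest in cells-alone 2.

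Most activation receptors rose. Of 20 listed genes of this kind 16 rose and 0 fell, with a median log2 fold change of 3.95. Tfrc, the transferrin receptor that brings iron into growing cells, was at 14.5, 17.1, 42.5 and 63.0 CPM in the cells alone and at 1244, 1300, 3359 and 1618 CPM in co-culture (5.78, SE 0.63, adjusted p = 0.000213). The beta chain of the interleukin 2 receptor, Il2rb, was at 15.5 to 44.5 CPM against 521 to 1179 CPM (4.65, SE 0.46). The costimulatory receptors Tnfrsf4 (OX40; 6.40, SE 0.56), Icos (3.13, SE 0.40) and Tnfrsf18 (GITR; 2.42, SE 0.33) rose too, and so did the early activation marker Cd69 (3.13, SE 0.49). None of the groups overlapped for these genes. For Tnfrsf18, 27.2% of the exonic bases lie under an antisense gene. Cd86, a ligand of CD28 that antigen-presenting cells carry at high levels and activated T cells at lower ones, was at 0.826 to 2.49 CPM against 9.58 to 28.1 CPM (3.50, SE 0.55). Cd28, Cd40lg, Slc3a2 and Tnfrsf1b were the 4 members not called.

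**Figure D3:**
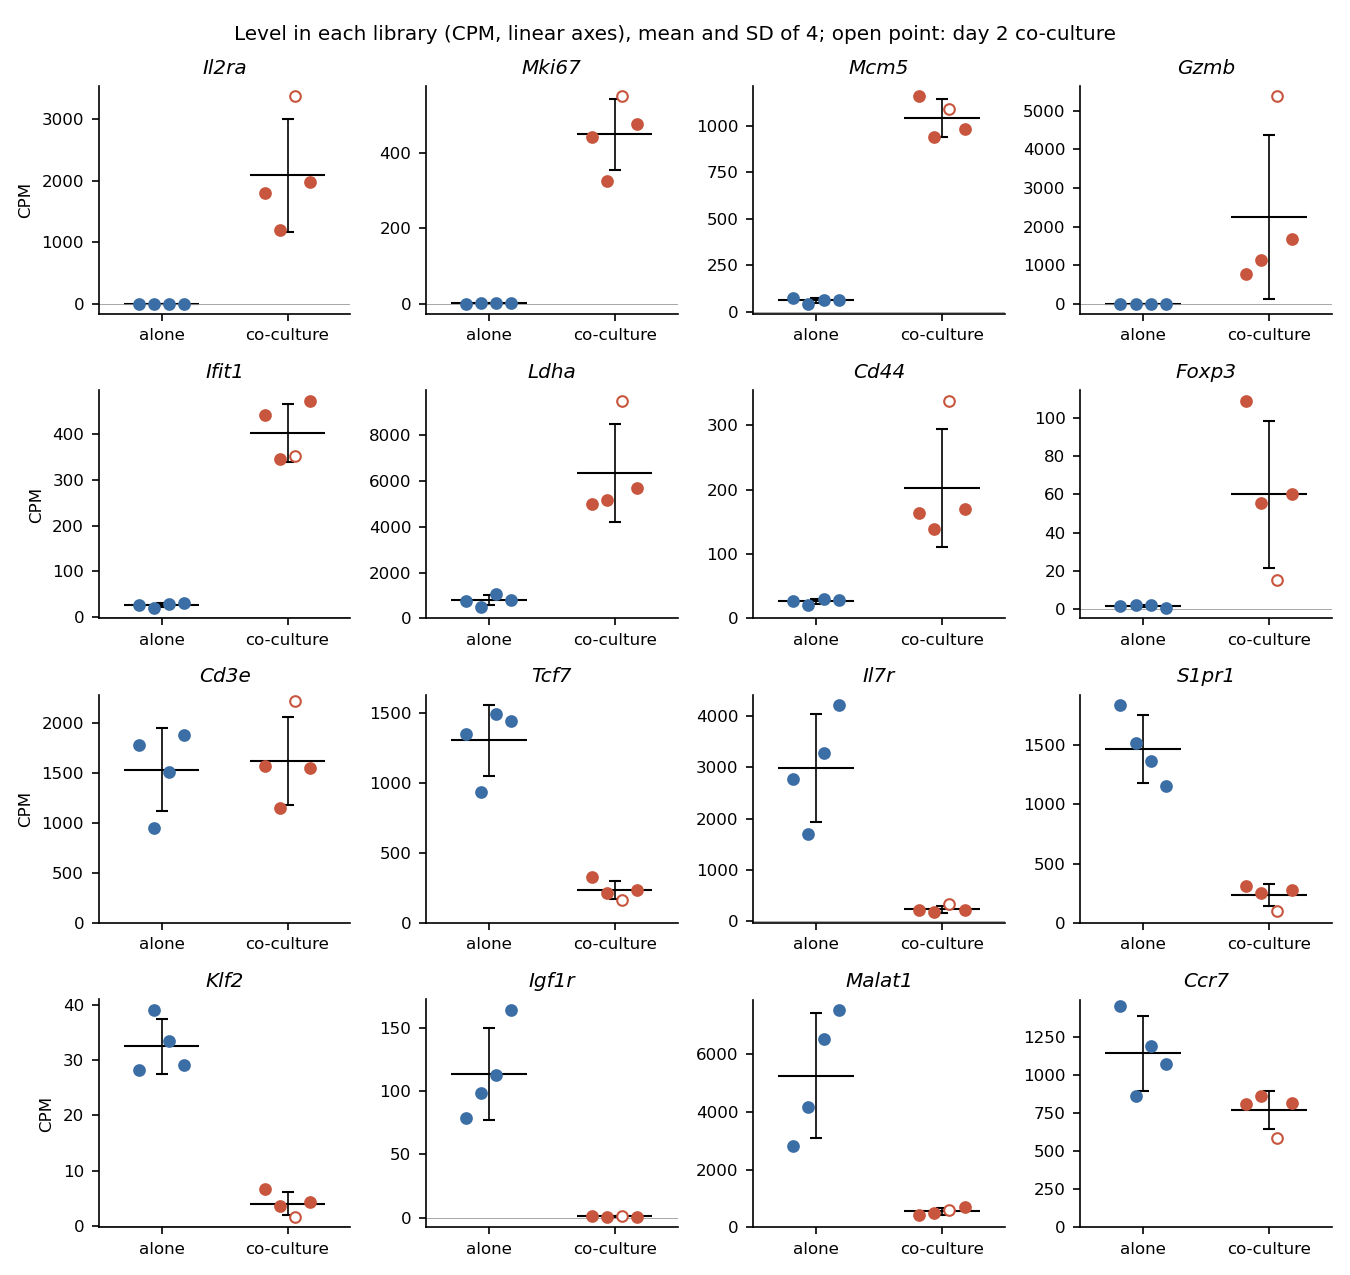
CPM of 16 genes in each library on linear axes, with the 4 cells-alone libraries in blue and the 4 co-cultures in red; black lines are the mean and the SD of 4, and the open point is co-culture 3 of day 2. Il2ra, Mki67, Mcm5 and Gzmb are near 0 in every cells-alone library or far under every co-culture, Tcf7, Il7r, S1pr1, Klf2, Igf1r and Malat1 are the reverse, and Cd3e and Ccr7 overlap between the groups.

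Genes of cell division rose. All 38 listed genes of mitosis and cytokinesis rose, 35 of them by the 2-fold test, with a median log2 fold change of 8.55. Of these, 4 had at most 3 counts over the 4 cells-alone libraries, and others, such as Mki67 and Cdk1, were near 0 there. Such genes could enter the test only through the co-cultures, so the share of this list is not read against the background. Of 38 genes of DNA replication 32 rose and 0 fell, with a median of 3.80. Mki67, a protein of dividing cells that marks cells outside rest, was at 0, 1.15, 0.544 and 1.73 CPM in cells-alone 1 to 4 and at 441, 326, 549 and 477 CPM in co-cultures 1 to 4 (9.04, SE 0.99, adjusted p = 0.000214). Cdk1, the kinase that starts mitosis, was at 0, 0.0459, 1.25 and 2.86 CPM against 375, 352, 599 and 451 CPM (8.70, SE 1.26, adjusted p = 0.000834). The groups were far apart for both genes, and all 4 co-cultures were high. Hmmr, a spindle protein, had 3 counts over the 4 cells-alone libraries and 389 to 827 CPM in the co-cultures, a ratio of pooled counts of 23922 (exact 95% interval 8185 to 116000).

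Some replication genes were already well counted in the cells alone and others were near 0, such as Rrm2 (above). Mcm5, a subunit of the helicase that opens DNA for replication, was at 73.2, 43.2, 64.7 and 61.4 CPM in the cells alone and at 1160, 939, 1092 and 982 CPM in co-culture (4.10, SE 0.25, adjusted p = 1.63e-05). Tk1 (6.79, SE 0.40, at 1.28 to 3.34 CPM in the cells alone) and Tyms (5.34, SE 0.54), which make thymidine nucleotides, and Gmnn, which limits replication to 1 round (5.01, SE 0.33), also rose. Mcm2, another helicase subunit, varied within both groups, with 74.8, 90.2, 34.6 and 18.8 CPM against 617, 542, 110 and 323 CPM (2.87, SE 0.63, adjusted p = 0.00630). Its lowest co-culture value was that of day 2. Of 15 tested G1 genes (18 listed) 8 rose and 2 fell: the kinases Cdk6 (4.54, SE 0.63) and Cdk4 (1.74, SE 0.24) and the cyclin Ccnd2 (1.80, SE 0.30) rose. Cdkn1b (p27), an inhibitor of cyclin-dependent kinases that is high in resting cells, fell from 24.2 to 27.0 CPM to 4.65 to 8.17 CPM (-1.92, SE 0.31, adjusted p = 0.00144). Without cells-alone 1, 4 G1 genes were called lower, and without co-culture 4 only 1. Cdkn1a (p21), an inhibitor that both p53 and mitogens induce, was at 0.590 CPM in cells-alone 3 and at 0 in the other 3, and at 145, 133, 49.5 and 128 CPM in co-culture (9.36, SE 1.27).

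The promoters of these 2 cell cycle groups differ in how often they hold 2 short motifs, and 2 windows are shown as examples that hold a match. The windows of Rrm2 and Ccnb1, which also rose, held 0 matches to the motif of their group. The windows run from 250 bases before to 50 bases after the annotated start (RefSeq, GRCm38.p6), are written on the gene's strand, and the capitals mark the matches. In Mcm5 (chr8:75109259-75109558, plus strand) they mark overlapping E2F elements, the site that E2F factors bind in replication genes. In Cdk1 (chr10:69352863-69353162, minus strand) they mark the cell cycle homology region, the site that repressor and activator complexes bind in mitotic genes. The Cdk1 window also holds an E2F element (TTTCGCGC), left in lower case. It is the 1 window of 34 in the mitosis list that does.
Mcm5: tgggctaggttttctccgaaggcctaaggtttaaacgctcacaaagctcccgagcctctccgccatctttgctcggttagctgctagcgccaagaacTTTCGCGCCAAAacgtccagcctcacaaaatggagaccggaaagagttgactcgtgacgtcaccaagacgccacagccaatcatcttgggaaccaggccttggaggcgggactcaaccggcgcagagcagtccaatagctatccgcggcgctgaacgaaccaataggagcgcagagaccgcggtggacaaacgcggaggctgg
Cdk1: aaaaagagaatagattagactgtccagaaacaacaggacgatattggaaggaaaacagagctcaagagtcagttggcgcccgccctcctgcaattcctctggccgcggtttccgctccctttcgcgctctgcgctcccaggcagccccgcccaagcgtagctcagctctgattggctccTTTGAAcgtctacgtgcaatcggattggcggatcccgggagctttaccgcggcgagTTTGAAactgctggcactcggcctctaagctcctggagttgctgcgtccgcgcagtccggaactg
An E2F element (TTTCGCGC, TTTGGCGC, TTTCCCGC or TTTGCCGC on either strand) was found in 13 of 36 windows of replication genes, or 36.1%, in 2.94% of the mitosis windows and in 2.26% of all 32851 windows. The cell cycle homology region (TTTGAA, either strand) was found in 26 of 34 windows of mitosis genes, or 76.5%, in 13.9% of the replication windows and in 17.9% of all windows. A CCAAT box was found in 76.5% of the mitosis windows, 61.1% of the replication windows and 37.4% of all windows. These matches describe the letters of the windows and show no binding.

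Most interferon-stimulated genes rose. Of 48 type I interferon-stimulated genes 39 rose and 0 fell, with a median log2 fold change of 2.89, and of 26 tested genes of the interferon gamma response (28 listed) 17 rose and 0 fell, with a median of 2.22. Ifit1, an antiviral protein that binds foreign RNA (chromosome 19, 34640871 to 34650009, plus strand), was at 27.5, 20.4, 29.7 and 31.5 CPM in cells-alone 1 to 4 and at 441, 346, 352 and 471 CPM in co-cultures 1 to 4 (3.88, SE 0.25, adjusted p = 1.64e-05). Ifit1 was even over the 4 co-cultures, that of day 2 included. Ifitm3, a membrane protein that blocks virus entry, had 2 counts in the cells alone and 483 to 683 CPM in co-culture, a ratio of pooled counts of 38159 (exact 95% interval 10563 to 315100). Ifi27l2a was at 46.7 to 72.9 CPM against 2486 to 3596 CPM (5.46, SE 0.28).

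Among targets of interferon gamma, the guanylate-binding proteins Gbp6 (4.36, SE 0.36), Gbp5 (3.99, SE 0.47) and Gbp2 (3.12, SE 0.41) and the GTPase Iigp1 (4.86, SE 0.53) rose, all without overlap of the groups. These proteins attack vacuoles that hold microbes. Irf1, which interferon gamma also induces, was at 257, 186, 95.4 and 51.0 CPM against 321, 346, 58.6 and 260 CPM and was not called (0.74, SE 0.59, adjusted p = 0.344). The counting of near-identical members of the guanylate-binding and Ifi families could split reads between copies, so the level of a single member is less certain than that of the family.

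The windows of Ifit1 (chr19:34640639-34640938, plus strand) and Isg15 (chr4:156200769-156201068, minus strand) are shown because they hold repeated interferon-stimulated response elements, the site through which type I interferon acts on promoters. The capitals mark the elements, which in Ifit1 lie on the opposite strand.
Ifit1: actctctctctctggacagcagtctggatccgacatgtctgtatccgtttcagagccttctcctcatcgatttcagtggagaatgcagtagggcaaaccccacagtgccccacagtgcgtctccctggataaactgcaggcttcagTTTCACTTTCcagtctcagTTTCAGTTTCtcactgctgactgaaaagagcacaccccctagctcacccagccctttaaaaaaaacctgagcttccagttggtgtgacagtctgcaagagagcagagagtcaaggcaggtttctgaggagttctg
Isg15: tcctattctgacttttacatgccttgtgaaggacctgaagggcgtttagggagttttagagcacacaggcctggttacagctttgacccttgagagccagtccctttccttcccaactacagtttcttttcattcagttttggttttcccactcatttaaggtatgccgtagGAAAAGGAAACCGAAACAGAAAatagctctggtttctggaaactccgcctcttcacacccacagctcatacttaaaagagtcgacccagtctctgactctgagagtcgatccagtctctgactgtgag
The element (GAAA, any 2 bases and GAAA again, either strand) was found in 23 of 43 windows of the type I list, or 53.5%, and in 3.44% of all windows. It was found in 2.94% of the mitosis windows, 2.78% of the replication windows and 2.50% of the windows of naive T cell genes.

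**Figure D4:**
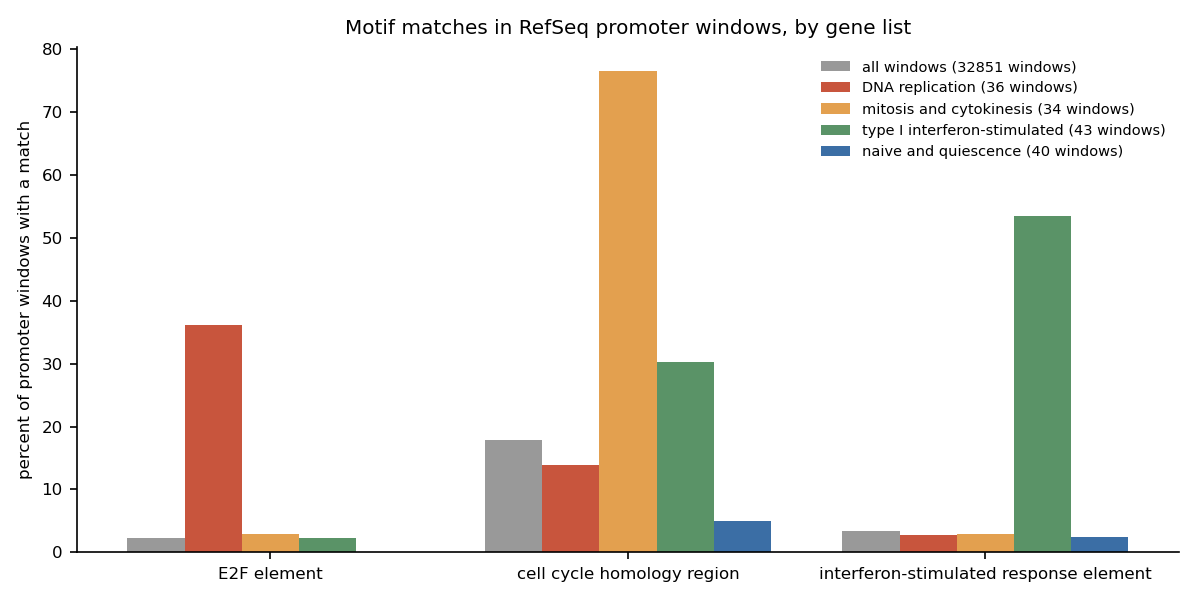
Percent of RefSeq promoter windows with at least 1 match (vertical axis) for 3 motifs, by gene list. The replication list has the highest bar for the E2F element (36.1%), the mitosis list for the cell cycle homology region (76.5%) and the type I interferon list for the interferon-stimulated response element (53.5%), against 2.26%, 17.9% and 3.44% of all windows.

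Several cytokine genes rose, while the helper lineage factors Tbx21, Gata3 and Bcl6 were not called. Of 38 listed cytokine and chemokine genes 18 rose, 2 fell, 6 were not called and 12 had too few counts to be tested. Of the 26 tested, 13 had at most 3 counts over the 4 libraries of 1 group and could enter the test only through the other group. The share of this list is therefore not read against the background. Lif, a cytokine of the interleukin 6 family, had no count in the cells alone and stood at 125, 161, 129 and 149 CPM in co-cultures 1 to 4 (at least 6359-fold higher, adjusted p = 1.63e-05). Lta (lymphotoxin alpha) was at 12.2 to 21.4 CPM against 357 to 903 CPM (5.20, SE 0.39), and Tnf at 2.49, 4.64, 4.90 and 9.63 CPM against 57.0, 63.4, 110 and 84.3 CPM (3.86, SE 0.46). Il2, the growth factor of dividing T cells, stayed low, at 0.238 to 0.872 CPM against 1.13 to 3.79 CPM (2.19, SE 0.65, adjusted p = 0.0244). Its call was lost with the replicate block, with library totals alone, without the filter and without cells-alone 3 or 4 or co-culture 1 or 4 (adjusted p 0.00117 to 0.0944 over the alternatives).

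Of 21 tested genes of T helper 1 and cytotoxic cells (22 listed) 14 rose and 3 fell. The 3 that fell were Prf1 (perforin), Ctsw and Klrd1. Of the 21, 5 had at most 3 counts over the 4 libraries of 1 group. Ifng, the cytokine that defines T helper 1 cells, had no count in the cells alone and was uneven in co-culture, at 1.44, 12.7, 52.3 and 12.3 CPM (at least 829-fold higher, adjusted p = 0.00264). Its highest level was again that of day 2 and its lowest that of co-culture 1. The signalling chain of the interleukin 12 receptor, Il12rb2 (9.61, SE 1.17), the interleukin 18 receptor subunit Il18rap (7.45, SE 0.99) and the granule protein Nkg7 (7.40, SE 0.85) rose. Of Il12rb2's exonic bases 40.0% lie under Serbp1 on the other strand. Tbx21 (T-bet), the factor that defines the lineage, was at 0, 0.689, 0 and 0 CPM against 0.246, 1.18, 1.19 and 0.840 CPM and was not called (2.43, SE 1.50, adjusted p = 0.223). It was called in 3 of 18 alternatives, among them that without cells-alone 2. The groups overlap for Tbx21.

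Genes of the other helper lineages were mixed. Of 6 tested T helper 2 genes (12 listed) 3 rose, with Ccr4, a receptor for skin and lung homing, at 0.0934 to 7.46 CPM against 95.7 to 163 CPM (5.06, SE 0.93). Gata3, the factor of this lineage, was at 29.2, 65.4, 18.5 and 13.9 CPM against 20.8, 26, 9.68 and 12.1 CPM and was not called (-0.89, SE 0.53). Il4 had 31 counts over the 4 cells-alone libraries and 28 over the co-cultures, too few to be tested. Of 9 tested T helper 17 genes (13 listed) 5 rose and 1 fell. Il17f, Il22, Ccr6, Il1r1 and Batf were the 5 that rose, all also by the 2-fold test. Of the 9, 4 had at most 3 counts over the 4 libraries of 1 group. Il17a, with no count in the cells alone and 74 over the co-cultures (0.196 to 0.827 CPM), was too low to be tested. Il6ra, a receptor of the interleukin 6 family that naive cells carry, fell from 56.6 to 137 CPM to 2.80 to 7.33 CPM (-4.04, SE 0.44). Of 10 tested follicular helper genes (13 listed) 3 rose and 4 fell. Bcl6, the factor of follicular helper cells, was at 32.0, 28.9, 10.0 and 15.5 CPM against 11.9, 8.71, 1.98 and 6.52 CPM (-1.57, SE 0.58, adjusted p = 0.0564). It was called lower in 5 of 19 alternatives, with library totals alone, upper quartile scaling, the replicate block, all 13 libraries and DESeq2 (adjusted p 0.00773 to 0.165 over the alternatives). The co-cultures overlap the cells alone only in library 1.

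Genes of regulatory T cells rose in 10 of 11 tested cases (12 listed), with a median of 3.85, and several of them also belong to activated T cells, so the list does not tell these apart. Foxp3, the factor that defines regulatory T cells (X chromosome, 7573644 to 7595245, plus strand), was at 1.77, 2.07, 1.86 and 0.507 CPM in cells-alone 1 to 4. It stood at 109, 55.2, 15.2 and 60.4 CPM in co-cultures 1 to 4, lowest in the library of day 2 where Ifng and Gzmb were highest (5.27, SE 0.70, adjusted p = 0.000530). The groups do not overlap, and 18.7% of its exonic bases lie under genes on the other strand. The folate receptor 4 gene Izumo1r, which regulatory and anergic cells carry, was at 36.1, 6.75, 10.0 and 8.35 CPM against 113 to 153 CPM (3.09, SE 0.55). Capg, an actin-capping protein, was at 2.43 to 5.92 CPM against 221 to 335 CPM (6.09, SE 0.38). Nrp1, often used for regulatory cells of thymic origin, was not called (1.58, SE 0.78, adjusted p = 0.138), except without cells-alone 2 or with all 13 libraries.

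Inhibitory receptors rose beside the activating ones. Of 12 tested genes (15 listed) 9 rose and 1 fell, with a median of 3.65. Ctla4, which takes B7 ligands away from CD28, was at 0, 1.29, 1.27 and 2.32 CPM against 84.1, 94.2, 171 and 98.0 CPM (6.51, SE 0.99, adjusted p = 0.00107). Pdcd1 (PD-1) was at 1.84 to 9.41 CPM against 25.6 to 58.3 CPM (2.93, SE 0.54), and Entpd1 (CD39), which breaks down extracellular ATP, at 1.47 to 2.59 CPM against 30.1 to 82.5 CPM (4.62, SE 0.46). All 3 were highest in co-culture 3. Lag3 had no count in the cells alone and 11 over the co-cultures, too few to be tested. Tox, a factor linked to exhaustion, fell from 47.7 to 86.3 CPM to 14.9 to 19.8 CPM (-1.99, SE 0.28). Of 10 tested anergy genes (12 listed) 1 rose and 1 fell, with a median of -0.12 that turns to 0.21 within day 1.

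Genes of the naive, resting state fell. Of 22 listed genes 16 fell (72.7% against 19.6% of all genes) and 0 rose, with a median of -1.68. Tcf7, or TCF-1, the factor that keeps T cells naive or memory-like (chromosome 11, 52252371 to 52283014, minus strand), was at 1347, 933, 1492 and 1438 CPM in cells-alone 1 to 4. It stood at 326, 211, 166 and 236 CPM in co-cultures 1 to 4 (-2.47, SE 0.28, adjusted p = 0.000245). Its partner Lef1 was still at 601 to 1108 CPM after 1867 to 2530 CPM (-1.36, SE 0.25, adjusted p = 0.00238). Klf2, which holds T cells in rest and drives S1pr1, was at 28.2 to 39.2 CPM against 1.57 to 6.70 CPM (-3.02, SE 0.46). Klf3 (-3.08, SE 0.26), the glucocorticoid-induced Tsc22d3 (-2.90, SE 0.26), the antiproliferative Btg1 (-2.78, SE 0.37) and Foxp1 (-1.82, SE 0.22), which enforces quiescence, fell too, and in none of these did the groups overlap. Vsir (VISTA), a checkpoint receptor of naive cells, went from 513, 400, 285 and 209 CPM to 130, 125, 30.5 and 109 CPM (-1.83, SE 0.46, adjusted p = 0.0121).

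Of 23 homing and chemokine receptors 11 rose (47.8% against 18.9% of all genes) and 5 fell (21.7%, near the 19.6% of all genes), with a median of 1.08. S1pr1, which lets T cells leave lymphoid organs (chromosome 3, 115710433 to 115715072, minus strand), was at 1834, 1516, 1368 and 1154 CPM against 308, 249, 104 and 279 CPM (-2.64, SE 0.35, adjusted p = 0.000561). The integrin subunit Itga4 (-2.37, SE 0.27) and the chemokine receptor Cxcr4 (-2.37, SE 0.37) fell. Cd44, a hyaluronan receptor that separates naive from activated cells, was at 26.4, 20.6, 30.8 and 28.2 CPM against 164, 138, 338 and 169 CPM (2.93, SE 0.34, adjusted p = 0.000264). Ccr8, a receptor of tissue and regulatory T cells, was at 0 to 1.24 CPM against 27.5 to 51.7 CPM (6.22, SE 0.98). Ccr7, the chemokine receptor that takes naive cells into lymph nodes, was at 865 to 1456 CPM against 589 to 866 CPM and was not called (-0.57, SE 0.24, adjusted p = 0.0817). It was called in 3 of 19 alternatives, among them that without cells-alone 2. The count of homing genes called lower was 3 without co-culture 1, 2 or 4.

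The receptor for interleukin 7 fell while chains of the interleukin 2 receptor rose. Il7r, the interleukin 7 receptor that naive T cells depend on (chromosome 15, 9505788 to 9530176, minus strand), was at 2763, 1690, 3285 and 4204 CPM in cells-alone 1 to 4 and at 213, 173, 329 and 226 CPM in co-cultures 1 to 4 (-3.67, SE 0.35, adjusted p = 0.000114). The lowest cells-alone library was still far above the highest co-culture. Cish, an inhibitor that STAT5 induces, was at 6.75 to 12.8 CPM against 204 to 304 CPM (4.85, SE 0.30, adjusted p = 1.63e-05). Of 23 genes of this signalling group 7 rose and 3 fell, a mix whose median of -0.07 turns positive (0.04) with another scaling, so no direction is given for the group.

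Transcription factors of activation rose in part. Of 26 tested AP-1, IRF, NF-kB and NFAT factors (28 listed) 8 rose and 5 fell, with a median of 0.21 that is -0.13 with library totals alone. Irf4, which scales with receptor signal strength, was at 0, 0.872, 1.43 and 1.34 CPM against 53.2, 49.0, 93.2 and 63.1 CPM (6.14, SE 0.96). Bhlhe40, needed for cytokine production, was at 0.826 to 5.57 CPM against 164 to 359 CPM (6.45, SE 0.65). Id2 (2.73, SE 0.32) and Batf (1.75, SE 0.31) rose, and Prdm1 (Blimp-1), a factor of terminal differentiation, fell from 22.9 to 40.3 CPM to 5.47 to 8.57 CPM (-2.24, SE 0.33). Without cells-alone 2 or co-culture 1, 3 or 4, 3 factors of the list were called lower. Myc, which drives growth in the first days of activation, was at 87.3, 92.0, 19.0 and 6.11 CPM in the cells alone and at 46.3, 98.7, 7.70 and 19.9 CPM in co-culture. The groups overlap across their whole range, and Myc was not called (-0.24, SE 0.90, adjusted p = 0.849), with either sign over the alternatives. Its partner Max rose (2.46, SE 0.25), and the MYC antagonist Mnt fell (-2.63, SE 0.47).

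Glycolysis genes rose in 13 of 24 cases, or 54.2% against 18.9% of all genes, and 2 fell, with a median of 1.11. Ldha, which turns pyruvate into lactate (chromosome 7, 46841475 to 46855627, plus strand), was at 761, 516, 1075 and 827 CPM against 4982, 5182, 9511 and 5709 CPM (3.00, SE 0.33, adjusted p = 0.000213). Hk2, the inducible hexokinase, had 1 count in the cells alone and 13.6 to 27.2 CPM in co-culture, a ratio of pooled counts of 2813 (exact 95% interval 504.5 to 111140). Tpi1 (5.33, SE 0.47) and Eno1 (2.00, SE 0.25) rose. Pkm, pyruvate kinase, was at 516 to 791 CPM against 3876, 3572, 1516 and 3346 CPM, lowest on day 2 (2.23, SE 0.32). The glucose transporter Slc2a1 rose, from 46.3 to 99.7 CPM to 89.1 to 165 CPM (1.11, SE 0.32, adjusted p = 0.0211), with overlapping groups. Slc2a3, another glucose transporter, was at 37.0 to 80.1 CPM against 59.1 to 81.0 CPM and was not called (0.38, SE 0.29, adjusted p = 0.319).

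Mitochondrial genes of the nucleus rose in part and those of the mitochondrial genome were not called. Of 25 nuclear genes of oxidative phosphorylation 15 rose and 1 fell (median 1.19), and of 23 genes of the citrate cycle 9 rose and 0 fell (median 0.92). Cycs, cytochrome c, was at 45.8 to 75 CPM against 172 to 428 CPM (2.06, SE 0.34), and Cs, citrate synthase, at 160 to 185 CPM against 419 to 603 CPM (1.56, SE 0.20). Of the 13 mitochondrially encoded genes 0 were called by edgeR, DESeq2 or limma-voom, 2 had an unadjusted p under 0.05 by edgeR, and the median was -0.20. Their sum was 11500 to 19400 CPM in the cells alone and 6600 to 15300 CPM in co-culture, so the groups overlap, and 3 of them were lower with library totals alone, 2 with the replicate block and 2 without co-culture 3.

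Among enzymes that supply building blocks for division, those of serine and one-carbon metabolism rose in the largest share. Of 13 tested genes of serine and one-carbon metabolism (15 listed) 8 rose and 0 fell (median 1.50). Phgdh, the first step of serine synthesis, was at 14.4, 16.5, 15.5 and 15.7 CPM against 151, 129, 140 and 134 CPM (3.16, SE 0.22, adjusted p = 2.01e-05). Psat1, the next enzyme (5.05, SE 0.50), the cytosolic Shmt1 (4.58, SE 0.51) and the mitochondrial Mthfd2 (2.92, SE 0.42) rose. Of 15 tested genes of amino acid transport and polyamines (17 listed) 5 rose and 1 fell (median 0.66). Bcat1, which handles branched-chain amino acids, had no count in the cells alone and was at 83.0 to 195 CPM in co-culture (at least 5134-fold higher). Odc1, the first enzyme of polyamine synthesis, was at 1.31 to 5.48 CPM against 16.6 to 30.4 CPM (3.02, SE 0.55). Slc7a5, the large neutral amino acid transporter, was at 0 to 3.63 CPM against 6.15 to 9.33 CPM and was not called (2.24, SE 1.06, adjusted p = 0.119), although the groups do not overlap. It was called in 3 of 19 alternatives, among them that without cells-alone 1. Of 26 genes of sterol and fatty acid synthesis 11 rose and 2 fell (median 1.10). Scd2, a fatty acid desaturase, was at 2.77 to 9.81 CPM against 214 to 390 CPM (5.81, SE 0.47).

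Protein folding and degradation genes rose in 23 of 30 cases, with 0 lower and a median of 1.58. The endoplasmic reticulum chaperones Calr (2.42, SE 0.30), Hsp90b1 (1.97, SE 0.27), Pdia4 (1.64, SE 0.22) and Canx (1.58, SE 0.19) rose. Hspa5 (BiP), their central member, was at 346, 285, 160 and 96.8 CPM against 1081, 1340, 334 and 1021 CPM (2.09, SE 0.50, adjusted p = 0.00974), with the day 2 library among the cells alone. Of 16 tested genes of the integrated stress response (20 listed) 5 rose and 0 fell (median 0.56). Its factors Atf4 (-0.69, SE 0.65) and Ddit3 (-0.57, SE 0.30) were not called. Of 25 ribosome biogenesis genes 8 rose and 0 fell, and the nucleolar proteins Npm1 (1.97, SE 0.35) and Ncl (1.27, SE 0.22) were among them. Of 37 cytosolic ribosomal protein genes 16 rose and 2 fell (median 0.65), and their sum of 5930 to 8550 CPM in the cells alone lay under that of 8990 to 12200 CPM in co-culture. With upper quartile scaling 8 of them rose, with library totals alone 9, without cells-alone 4 10 and without co-culture 4 9. Ribosomal protein genes, Npm1 and glycolytic genes have many processed pseudogenes that share their reads, and the sources used here do not give how such reads were counted.

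Survival and stress genes were mixed. Of 14 tested BCL2 family genes (17 listed) 5 rose and 2 fell. These are 35.7% and 14.3%, against 18.9% and 19.6% of all genes. Bcl2l1 (BCL-XL), a protector that CD28 induces, was at 9.53, 12.3, 14.8 and 20.7 CPM against 184, 156, 208 and 176 CPM (3.66, SE 0.30, adjusted p = 5.53e-05). Bcl2a1d, of a family of near-identical copies, was at 6.89 to 9.46 CPM against 28.8 to 64.7 CPM (2.43, SE 0.34). Mcl1, a short-lived protector, was at 83.1 to 162 CPM against 51.3 to 70.4 CPM (-1.01, SE 0.26, adjusted p = 0.0126), and its call was lost without co-culture 4 (adjusted p 0.00121 to 0.0519 over the alternatives). The count of family members called higher was 3 without cells-alone 4 or co-culture 2 or 4, and 2 with library totals alone. Of 16 tested p53 targets (18 listed) 3 rose, or 18.8%, near the 18.9% of all genes. The 5 that fell are 31.2%, against 19.6% of all genes. After a correction for GC content 6 were higher. Fas, the death receptor, rose (1.68, SE 0.37) and Sesn1, a brake on growth signalling, fell from 41.5 to 167 CPM to 11 to 25 CPM (-2.45, SE 0.50). Without cells-alone 2, 6 p53 targets were called higher, and without cells-alone 1 or 2 or co-culture 1, 3 or 4, 3 were called lower.

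Cytoskeletal and calcium-binding proteins of effector cells rose, 11 of 15 with 0 lower and a median of 3.90. Lgals1 (galectin 1, chromosome 15, 78926725 to 78930465, plus strand), a lectin that activated and regulatory T cells secrete, was at 12.5, 16.9, 31.6 and 27.9 CPM in cells-alone 1 to 4 and at 1881, 1440, 2285 and 1977 CPM in co-cultures 1 to 4 (6.42, SE 0.40, adjusted p = 1.64e-05). Lgals3 (8.53, SE 1.01), S100a4 (5.81, SE 1.16) and S100a6 (5.47, SE 0.60) rose as well, S100a4 to only 1.52 to 6.75 CPM.

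Of 15 tested genes of the TGF-beta pathway (17 listed) 8 fell, or 53.3% against 19.6% of all genes, and 2 rose, with a median of -2.29. Itgae and Pmepa1 were the 2 that rose, both also by the 2-fold test. Several of the listed genes are brakes that TGF-beta itself induces. Smad7, the inhibitory SMAD, was at 27.2, 48.0, 17.9 and 15.6 CPM against 3.16, 3.15, 1.07 and 1.04 CPM (-3.69, SE 0.59, adjusted p = 0.00134). The corepressors Tgif1 (-3.40, SE 0.35) and Skil (-2.38, SE 0.23) and the membrane inhibitor Ldlrad4 (-3.01, SE 0.31) fell, and 52.1% of Ldlrad4's exonic bases lie under genes on the other strand.

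Chromatin enzymes moved in both directions. Of 19 genes 7 rose and 6 fell. Uhrf1, which guides maintenance methylation to replicated DNA, was at 5.15 to 5.92 CPM against 733, 565, 190 and 570 CPM (6.57, SE 0.46, adjusted p = 2.25e-05), lowest in the day 2 library. Hells, a remodeller of replicating chromatin (3.70, SE 0.33), and Ezh2, the Polycomb methyltransferase (1.89, SE 0.30), rose, and Kmt2a, a trithorax methyltransferase, fell (-2.21, SE 0.25). Without co-culture 4, and with library totals alone, 4 genes of the list were called higher. Of 9 tested long noncoding RNAs (10 listed) 1 rose and 3 fell. Malat1, an abundant nuclear RNA (chromosome 19, 5795690 to 5802672, minus strand), was at 2809, 4151, 6518 and 7533 CPM in cells-alone 1 to 4 and at 439, 508, 598 and 710 CPM in co-cultures 1 to 4 (-3.22, SE 0.36, adjusted p = 0.000231). Neat1, its neighbour, fell from 533 to 1288 CPM to 118 to 194 CPM (-2.37, SE 0.33).

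**Figure D5:**
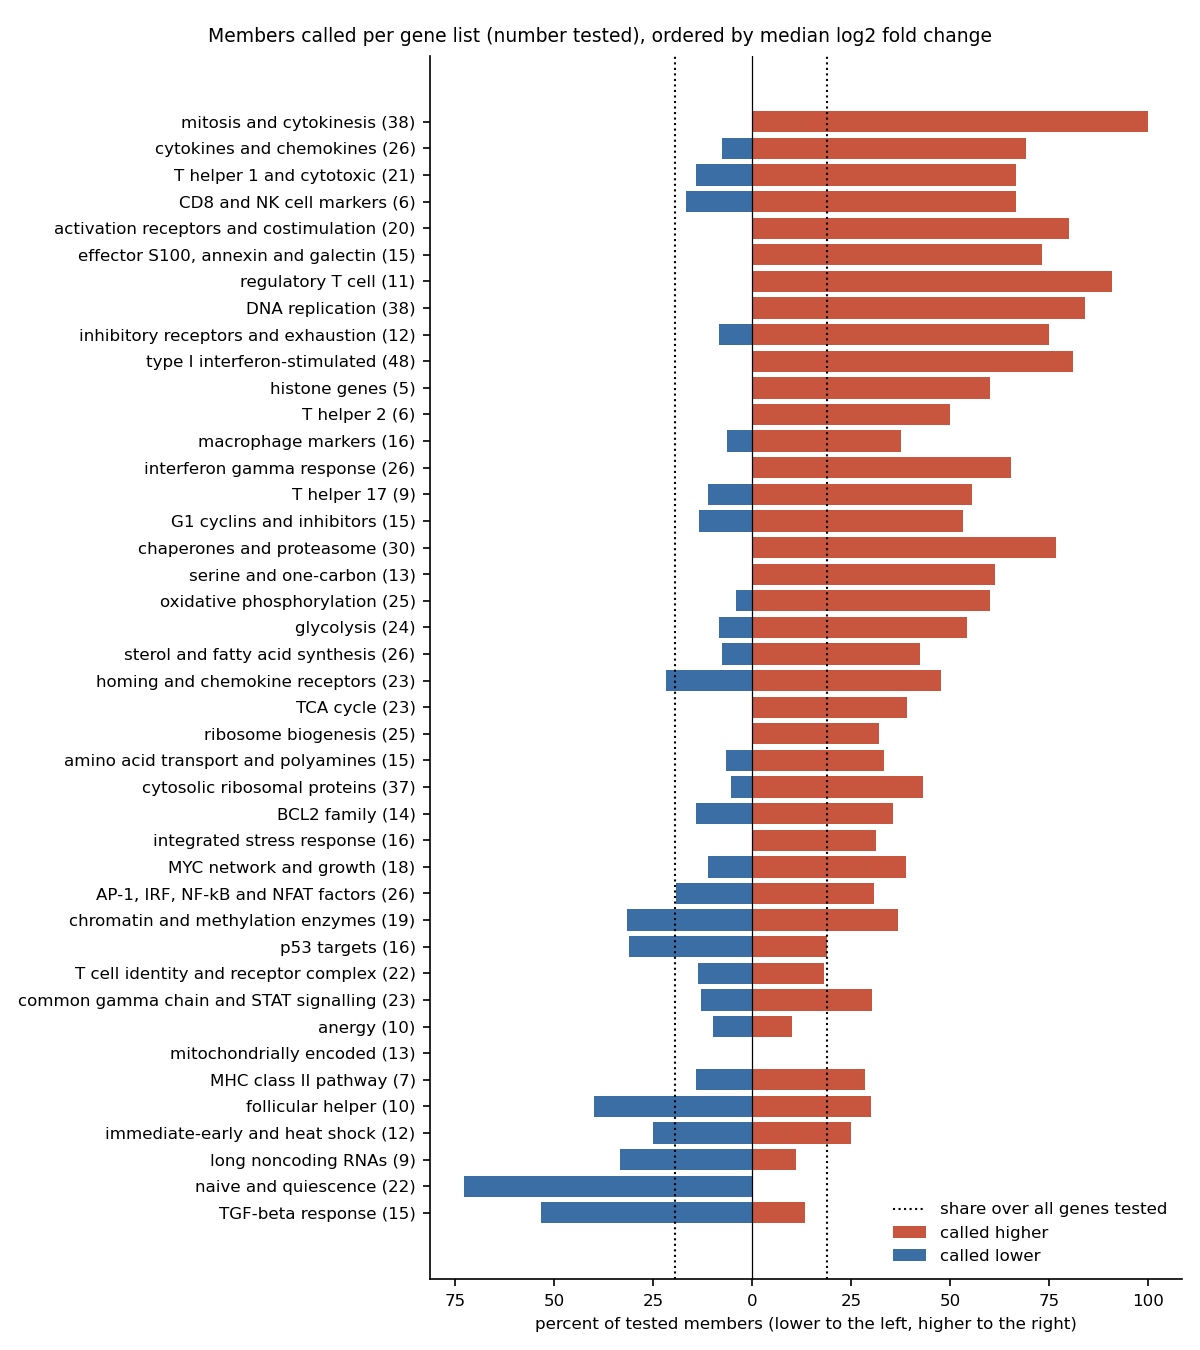
Percent of tested members called higher (red, to the right) and lower (blue, to the left) for each gene list with at least 5 tested members, ordered by the median log2 fold change, with the number tested in parentheses. Dotted lines mark the shares over all genes tested, 18.9% higher and 19.6% lower; mitosis reaches 100% higher, and naive genes (72.7%) and the TGF-beta response extend furthest to the left.

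Few genes of the T cell receptor complex were called. Of 22 T cell identity genes 4 rose and 3 fell, shares near or under those of all genes, and the median was 0.16, or -0.22 with library totals alone. Cd3e, a chain of the receptor complex, was at 1776, 952, 1512 and 1878 CPM against 1569, 1150, 2214 and 1544 CPM (0.08, SE 0.29, adjusted p = 0.839), with overlapping groups and either sign over the alternatives. Cd4 was at 816, 532, 694 and 860 CPM against 1161, 1044, 1248 and 1110 CPM (0.65, SE 0.22, adjusted p = 0.0391). The call for Cd4 held in 9 of 19 alternatives (adjusted p 0.0108 to 0.174) and was lost in the others. Among these were the fits within day 1, with library totals alone, and with cells-alone 1 or 3 or any 1 co-culture left out. Thy1, on whose protein the co-cultured cells were sorted as on CD4, was at 27.7 to 44.2 CPM against 100 to 183 CPM (1.91, SE 0.28), so neither rise is independent of the sort. Cd2, an adhesion receptor, rose (1.18, SE 0.23), and the costimulatory receptor Cd27 fell (-1.09, SE 0.27). The counts for this list moved with single libraries: 2 genes were called higher without co-culture 1, 3 or 4, and 1 lower without cells-alone 1 or 4 or co-culture 1, 2 or 4.

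Markers of other cells were counted in both groups, with the macrophage and B cell lists summing to as much as 2070 and 1900 CPM and the islet and acinar lists near 0. In bulk samples, fewer cells of a type and less RNA per cell cannot be told apart. The 32 macrophage markers, of which none was at 0 in all 8 libraries and 16 had enough counts to be tested, summed to 1260 to 2070 CPM in the cells alone and 1200 to 1320 CPM in co-culture. The sums overlap. Much of them was the cathepsin Ctsd, a lysosomal protease that T cells also express, which fell from 572 to 1134 CPM to 381 to 617 CPM (-0.95, SE 0.28, adjusted p = 0.0240). The Ctsd call was lost without cells-alone 4, without co-culture 1, 2 or 4 and with the GC correction. Of the 16, 6 rose and 1 fell, with a median of 2.27. Members near 0 in the cells alone, such as Lyz2, Msr1 and Fcer1g, could enter the test only through the co-cultures. The share of this list is therefore not read against the background. Lyz2, the lysozyme of myeloid cells, was at 0, 0, 0 and 0.149 CPM in the cells alone and at 1.23, 1.78, 25.4 and 2.62 CPM in co-cultures 1 to 4 (7.53, SE 1.61, adjusted p = 0.00560). Its near-identical copy Lyz1 could share reads with it. Msr1, a scavenger receptor of macrophages, had no count in the cells alone and was at 0.561, 0.666, 11.7 and 0.538 CPM in co-culture (adjusted p = 0.0118). Both genes were highest in co-culture 3 of day 2, and both were called in every alternative that tested them, that without co-culture 3 included. Fcer1g, a signalling chain of Fc receptors, was at 0 to 0.238 CPM against 0.366 to 2.89 CPM (3.78, SE 1.29, adjusted p = 0.0425) and was called in 7 of 18 alternatives. Ctsb, another cathepsin, was at 223 to 360 CPM against 465 to 507 CPM (0.69, SE 0.21, adjusted p = 0.0280) and was called in 12 of 19. Lyz2, Msr1, Fcer1g and Ctsb were chosen after their values were seen. Csf1r, the receptor for the macrophage growth factor, was at 0.204 to 0.964 CPM against 0.0672 to 0.772 CPM (-0.47, SE 0.83). Cd68 was at 0.0918 to 1.43 CPM against 1.83 to 9.46 CPM (2.28, SE 0.85, adjusted p = 0.0581). It was called higher in 2 of 19 alternatives, among them that without cells-alone 1. C1qc had 4 counts against 41 (up to 0.448 CPM). Axl, a receptor for dying cells on macrophages, was at 0 to 0.924 CPM against 18.9 to 35.9 CPM (6.04, SE 0.99). Cd74, the invariant chain of MHC class II, was at 0.0934, 7.39, 20.3 and 3.87 CPM against 103, 66.1, 63.9 and 59.7 CPM (3.20, SE 1.02, adjusted p = 0.0332). Its call was lost in 9 of 19 alternatives: with library totals alone, without the filter, within day 1, without cells-alone 2 or 4 and without any 1 co-culture (adjusted p 0.00119 to 0.0827 over the alternatives). The MHC class II list as a whole was at 49.7 to 147 CPM against 94.7 to 135 CPM. The part of macrophage RNA in any result was not tested.

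By library totals, the 14 B cell markers summed to 940 to 1900 CPM in the cells alone and 445 to 697 CPM in co-culture. Most of it was Ighm, which with TMM scaling was at 740 to 1671 CPM against 604 to 779 CPM (-0.89, SE 0.28, adjusted p = 0.0295). The groups overlap for Ighm. The sums were not scaled by TMM, so they are not on the scale of the Ighm values, and their separation depends on the scaling. The Ighm call was lost within day 1, with RLE size factors, without the filter, without cells-alone 3 or 4 and without any 1 co-culture. Cd79a, a defining B cell gene, was at 5.83 to 11 CPM against 0.561 to 1.44 CPM (-3.41, SE 0.51), and H2-Ob, an MHC class II chaperone of B cells, at 19.8 to 78.4 CPM against 0.0999 to 0.638 CPM (-7.50, SE 0.78). By library totals the B cell sum is higher where the naive genes are higher, and its part in that result was not tested. CD8 and NK cell markers summed to 90.9 to 167 CPM against 58.0 to 188 CPM, and 4 of 6 tested rose and 1 fell, with Cd8a at 0 to 0.643 CPM against 1.14 to 9.46 CPM (5.21, SE 1.59, adjusted p = 0.0276) and Cd8b1 at 15.9 to 37.1 CPM against 16.6 to 23.8 CPM. The Cd8a call was lost in 4 of 19 alternatives: within day 1, without co-culture 3, without co-culture 1 and without cells-alone 3 (adjusted p 0.000673 to 0.0690 over the alternatives). Islet endocrine markers summed to at most 0.994 CPM in the cells alone and 1.31 CPM in co-culture, with 5 of 12 at 0 in all 8 libraries, and pancreatic acinar and ductal markers to at most 0.809 and 1.17 CPM, with 6 of 11 at 0. Dendritic cell and neutrophil markers summed to 2.46 to 10.8 CPM against 0.980 to 2.69 CPM, with 4 of 13 at 0 in all 8 libraries.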

How the data were processed

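Libraries were made from 10 ng of RNA of sorted T cells by template switching, which loses the strand, per the labels' protocols. The estimated counts deposited by the authors are per gene and not normalized (55774 entries, 0 columns unmatched); 684 entries with repeated symbols were kept apart. A second deposited table, of adjusted log2 values for 12236 genes, served as an alternative only. The submitters' processing notes name GRCm38 and DESeq2; the sources used here do not give the aligner, the counting program or the annotation release. Estimated counts were rounded, filtered with filterByExpr (14590 genes), scaled by TMM and tested with edgeR 4.0.16 in R 4.3.3 by quasi-likelihood F tests with 1 mean per group on the 8 libraries. Genes were called at a Benjamini-Hochberg adjusted p under 0.05, and a second test asked for more than a 2-fold difference. SE is the log2 fold change over the root of F. CPM are scaled by TMM, except marker sums and untested genes, which use library totals. Folds against a group with 0 counts are bounds, using 3 counts in the group as the floor, and 3 counts are 0.0490 to 0.173 CPM in a library. Intervals and floors cover counting error only, since there are no molecular identifiers. The fit was checked on simulated counts. It called 2 of 50 genes with a true log2 change of 1, 36 of 49 with a change of 3 and 6 of 14015 unchanged genes. A gene that was not called is therefore not shown to be unchanged.

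The members and the 48 gene lists were chosen with earlier results of these data known. Named genes are key genes of the lists, the 15 largest and 15 smallest log2 fold changes among those called at a mean level of 3 log2 CPM or more that are not gene models, receptor or immunoglobulin segments or mitochondrially encoded, and up to 3 further members per list with the smallest p and a mean of at least 1 log2 CPM. Other genes are names of list members only. Some genes that the rule names are not reported here. Gene positions are from GENCODE vM21 on GRCm38. Same-numbered libraries of the groups deviated together (r 0.189 to 0.387 in 4 of 4 pairs). Some different numbers did so more, with r 0.485 for cells-alone 4 and co-culture 3 against 0.189 for cells-alone 4 and co-culture 4. The labels state no pairing and these values do not settle it. Pairing by number was therefore used only in an alternative, the replicate block. Alternatives were RLE, library totals and upper quartile scaling, other filters, day 1 only, the replicate block, all 13 libraries with day, each library left out, DESeq2 1.42.0, limma-voom (limma 3.58.1) and, added after seeing the data, a GC correction.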

Additional observations from a re-analysis of the deposited data

Results flagged for a closer look

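In 308 groups of 4 libraries (the genes named, in each group), 30 had a library far from the other 3 by Dixon's test, and chance alone flags about 1 in 20. Of these 30, 9 were in cells-alone 2 and 11 in co-culture 3.

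Cells-alone 2 was high for Rflnb (899 CPM, the others 156 to 261), Ypel3 (453), Btg1 (392) and Vipr1 (168), and low for Tsc22d3 (283) and Ifi27l2a (46.7). It also held the only or nearly only counts of Gzmb (0.735), Tbx21 (0.689) and Cd8a (0.643) among the cells alone.

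Co-culture 3, the library of day 2, was high for Ldha (9511 CPM, the others 4982 to 5709), Hsp90b1 (2990), Tpi1 (2965), Tnfrsf9 (1038, the others 272 to 317), Psat1 (687), Tnfrsf4 (456), Cd44 (338), Ctla4 (171) and Pdcd1 (58.3), and for the macrophage markers Lyz2 (25.4, the others 1.23 to 2.62) and Msr1 (11.7, the others 0.538 to 0.666). Collection day and library cannot be told apart here, since day 2 has 1 control-macrophage library.

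In single libraries, Izumo1r was at 36.1 CPM in cells-alone 1, Il12rb2 at 0.775, Ifitm3 at 0.0596, Lyz2 at 0.149 and Hk2 at 0.0298 CPM in cells-alone 4, and Cdkn1a at 0.590 and Hmmr at 0.0680 CPM in cells-alone 3, each against lower values in the other 3. Cd74 was at 103 CPM in co-culture 1, and Cd79a at 1.44 and H2-Ob at 0.638 CPM in co-culture 4, each the highest of its group.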

How the results depend on the processing

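Every one of the 5610 called genes kept its sign under each count-based alternative that tested it, and 68.3% (without co-culture 4) to 97.9% (DESeq2) were called again. With each library left out in turn, 2101 to 2882 genes were higher and 1798 to 3348 lower, and 1132 to 1521 higher and 725 to 1630 lower by more than 2-fold; the lowest counts of genes lower were without co-culture 1 (1871, and 728 by the 2-fold test) and co-culture 4 (1798 and 725). By the 2-fold test 1268 genes were lower as reported, 1970 with library totals alone, 842 with DESeq2 and 687 with limma-voom; the cause was not tested. With the replicate block, which pairs same-numbered libraries, 3141 genes were higher and 2848 lower. The block ended the calls for Il2 and Fcer1g and gave a call for Bcl6, and changed no other call of the genes named. With the GC correction, chosen after seeing the data, 3000 were higher and 2625 lower. In the adjusted log2 table that the authors deposited, 4962 of 5048 called genes had the same sign and 86 the opposite one, by limma. The Cd3e log2 fold change was -0.30 with library totals, -0.0544 with upper quartile scaling, -0.0466 within day 1 (the fit without co-culture 3), -0.0524 without cells-alone 2 and -0.0429 with all 13 libraries and day. The Myc log2 fold change was 0.21 within day 1 (without co-culture 3), 0.0731 with all 13 libraries and day, 0.11 with limma-voom, and 0.22, 0.23 and 0.10 without cells-alone 1, cells-alone 2 and co-culture 4. With each library left out in turn, the Cd3e value ranged from -0.0524 to 0.236 and the Myc value from -1.03 to 0.23. Depth limits genes near 0 in the cells alone, whose folds are bounds or have wide counting intervals.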

Other observations

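Of the genes called higher, 180 had no count in any of the 4 cells-alone libraries. In all, 413 genes were at 1 CPM or more in every co-culture and under 1 CPM in every cells-alone library, and 249 the reverse.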
